A study of Mus musculus with 9 samples.

Results

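The cells described here are the GFP-CD133+ cells of gate R2, labelled as dermal papilla cells of zigzag hairs, set against the GFP-CD133- cells of gate R1, the general pool of dermal cells left after papilla cells were gated out. Expression was measured on 9 arrays, and this comparison uses 6 of them, 3 for R2 and 3 for R1. The members are all 18193 genes with a probe set of their own, each read from its brightest probe set on average over the 9 arrays, so that no gene was chosen by its difference between the gates. Both gates were sorted from the back skin of the same 3 mice, numbered 2, 4 and 5, at postnatal day 2, with about 50000 cells and 1 array per mouse and gate. The remaining gate, R3, holds GFP+CD133+ papilla cells, and its 3 arrays entered the estimate of the spread and are quoted for single genes only as levels. CD133 is the surface protein made from Prom1, and GFP reports Sox2 in the mice known from this work. The sources used here name no strain, sex or GFP allele. Each gate is a sort by 2 markers and not a dissected papilla, so it can hold any cell with those markers. In such bulk samples, fewer cells of a type and less RNA per cell cannot be told apart.

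The hair bulb grows around a knot of mesenchymal cells, the dermal papilla. It sends signals of the Wnt, BMP, FGF and activin families to the epithelial matrix cells that build the hair, and it receives hedgehog and other signals from them. CD133 and the alkaline phosphatase gene Alpl are used to find these cells, and Sox2 marks papillae of some hair types but not those of zigzag hairs. CD133 is also found on other cell types, so the markers of endothelium, epithelium, immune cells and nerve are described beside the papilla genes.

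Values are log2 expression values, on which a step of 1 is a doubling, and no value of one gene is set against that of another. Array medians lay between 6.13 and 6.20. The upper end (95th percentile) of 44 olfactory receptor probe sets, which dermal cells are not known to use, lay between 5.14 and 5.46 by array and serves as a guide to background. Arrays of one gate correlated across probe sets at 0.981 to 0.985 in R1 and R2 and at 0.977 to 0.985 in R3, and R1 with R2 arrays at 0.962 to 0.968. Probe sets are not independent replicates. A sign of RNA quality, the beta-actin control signal at the 3' end minus that at the 5' end, was 0.04 to 0.07 on the R1 arrays and 0.11 to 0.22 on the R2 arrays, without overlap. That of Gapdh was 2.63 to 2.97 in R1 and 2.57 to 2.85 in R2. The beta-actin difference thus moved with every gene group below, and its part in the results was not tested.

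Prom1, the gene of the sorting antigen, checks the labels and is no finding. It read 7.82, 7.12 and 7.34 on the R1 arrays of mice 2, 4 and 5 and 11.89, 11.86 and 11.81 on the R2 arrays of the same mice. Each R2 array stood far above each R1 array. Sox2 read 4.45, 4.31 and 3.81 in R1 and 7.65, 6.43 and 7.17 in R2. Although R2 was gated as GFP-negative, every R2 array was above every R1 array, and the mean was 7.44-fold higher (log2 change 2.90, standard error 0.29, adjusted p = 0.000192). All R1 arrays of Sox2 lay below the background guide, so this fold rests on a dim level on the R1 side. All R2 values of Sox2 stayed below those of R3, where the mean was 10.66.

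Of the 18193 genes, limma called 2375, or 13.1%, at an adjusted p under 0.05. Of all genes, 1254 (6.89%) were higher in R2 and 1121 (6.16%) were lower. For 30.8% of all genes no R2 array fell inside the R1 range or the reverse, with 15.4% in each direction. These shares are the background against which every count of group members is given. The sign was the same in all 3 mice for 2374 of the 2375 called genes. The median change of all genes was -0.02. Called rises had a median fold of 1.85, and 497 reached 2-fold, 103 reached 4-fold and 18 reached 8-fold. Called falls were larger in the tail, with a median fold of 2.04, 586 at 2-fold, 168 at 4-fold and 38 at 8-fold. Among the falls 309 (27.6%) had an R2 mean no higher than the top of the background guide, against 140 rises (11.2%) with such an R1 mean, so these folds rest on dim signals. With each of the 6 arrays left out in turn, 1271 of the called genes, 660 higher and 611 lower, were called in the same direction in all 6 fits. The number called was 1554 without R2 replicate 4, and the number of rises was 822 without R2 replicate 2 and 804 without R2 replicate 4. Rises outnumbered falls by 1254 to 1121, but falls outnumbered rises after quantile normalization again (1163 rises, 1228 falls), with R1 replicate 5 left out (989 and 1001) and with R2 replicate 2 left out (822 and 831).

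**Figure D1:**
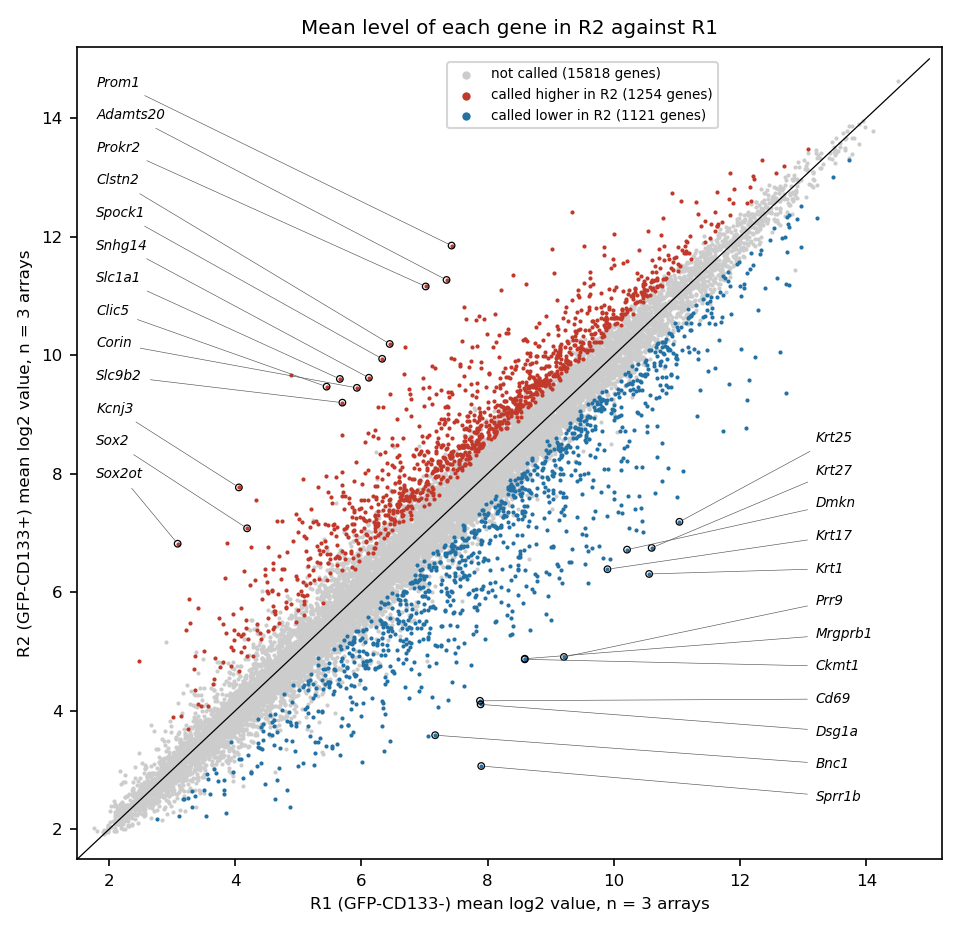
Mean log2 value of each of 18193 genes in R2 (vertical axis) against R1 (horizontal axis), 3 arrays a gate, with equal levels on the diagonal line. Red points are the 1254 genes called higher in R2, blue points the 1121 called lower and grey points the genes not called. Circled genes are Sox2 and those with the 12 largest rises and the 12 largest falls. Several of the circled falls lie at R2 levels under 5.14, below the background guide.

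Among the largest rises after Prom1 were a receptor, channels, transporters and matrix proteases. Prokr2, a receptor for prokineticins, read 7.10, 7.07 and 6.89 on the R1 arrays against 10.96, 11.16 and 11.37 on the R2 arrays. Its R2 mean was 17.7-fold higher (log2 change 4.14, standard error 0.14, adjusted p = 1.68e-06), and no R2 array came near the R1 arrays. Slc1a1, a transporter of glutamate, read 6.03, 5.49 and 5.45 in R1 and 9.65, 9.56 and 9.59 in R2, with R1 near the background guide and all 3 R2 arrays within a narrow range. Slc1a1 was 15.4-fold higher in R2 (log2 change 3.94 ± 0.17 SE, adjusted p = 2.8e-06). Clic5, a chloride intracellular channel protein that links membranes to the actin cytoskeleton, read 4.68, 5.84 and 5.82 on the R1 arrays against 9.50, 9.27 and 9.64 on the R2 arrays, 16.2-fold higher in R2 (log2 change 4.02 ± 0.28 SE, adjusted p = 3.35e-05). The R1 mean of Clic5, 5.45, lay at the upper end of the background guide, so this fold rests on a dim R1 level. Kcnj3, a subunit of G protein-gated potassium channels, read 3.61, 4.28 and 4.28 in R1 and 7.63, 7.77 and 7.90 in R2. All R1 arrays of Kcnj3 lay below the background guide, so its difference, 13.1-fold higher in R2 (log2 change 3.71 ± 0.29 SE, adjusted p = 5.59e-05), rests on a dim level on the R1 side.

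Adamts20, a secreted metalloprotease known from the survival of melanoblasts in skin, read 7.12, 7.38 and 7.54 on the R1 arrays against 11.07, 11.26 and 11.46 on the R2 arrays, 15.1-fold higher in R2 (log2 change 3.92 ± 0.24 SE, adjusted p = 1.79e-05). Corin, a transmembrane serine protease used as a papilla marker, read 6.30, 6.03 and 5.45 in R1 and 9.37, 9.42 and 9.56 in R2, 11.5-fold higher in R2 (log2 change 3.52 ± 0.21 SE, adjusted p = 1.59e-05). The R2 arrays of both proteases differed little between mice and did not overlap R1. Clstn2, a synaptic adhesion protein gene, rose 13.3-fold, and the testican proteoglycan gene Spock1 12.2-fold. The sodium/proton exchanger gene Slc9b2 rose 11.4-fold. Sox2ot, the noncoding transcript whose gene spans Sox2, rose 13.3-fold from R1 values of 2.79 to 3.34, under the guide, and Snhg14, a noncoding host gene of small nucleolar RNAs, rose 11.3-fold.

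The largest falls were mostly epithelial genes, with some of immune cells. Sprr1b, a protein of the cornified envelope, read 8.32, 6.80 and 8.57 on the R1 arrays against 2.85, 3.24 and 3.13 on the R2 arrays. Every R2 array of Sprr1b was below the background guide, so the fall, 28.3-fold lower in R2 (log2 change -4.82 ± 0.53 SE, adjusted p = 0.000367), rests on a dim level. Krt1, the keratin of suprabasal epidermis, read 10.70, 10.45 and 10.55 in R1 and 5.62, 6.52 and 6.79 in R2, 19.1-fold lower in R2 (log2 change -4.25 ± 0.43 SE, adjusted p = 0.00021). Krt25, a keratin of the inner root sheath, read 11.63, 11.09 and 10.41 on the R1 arrays against 7.71, 6.76 and 7.08 on the R2 arrays, 14.5-fold lower in R2 (log2 change -3.86 ± 0.54 SE, adjusted p = 0.00148). Both keratins were above the guide on all arrays and their gates did not overlap. Cd69, an activation marker of leukocytes, read 7.53, 8.36 and 7.75 in R1 and 4.08, 4.82 and 3.61 in R2, 13.1-fold lower in R2 (log2 change -3.71 ± 0.36 SE, adjusted p = 0.00017). The other falls of this group were those of Prr9 (19.8-fold), Krt27 (14.4-fold), the desmosomal cadherin gene Dsg1a (13.7-fold), the mitochondrial creatine kinase gene Ckmt1 (13.2-fold), the Mas-related receptor gene Mrgprb1 (13.1-fold), the keratinocyte transcription factor gene Bnc1 (12-fold), Krt17 (11.4-fold) and Dmkn (11.3-fold), an epidermal secreted protein. The R2 means of Cd69 (4.17), Prr9 (4.91), Dsg1a (4.11), Ckmt1 (4.87), Mrgprb1 (4.88) and Bnc1 (3.59) lay below the guide's upper end of 5.46. Their folds thus rest on dim levels too. Of the 38 falls of at least 8-fold, 15 had an R2 mean within the guide.

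**Figure D2:**
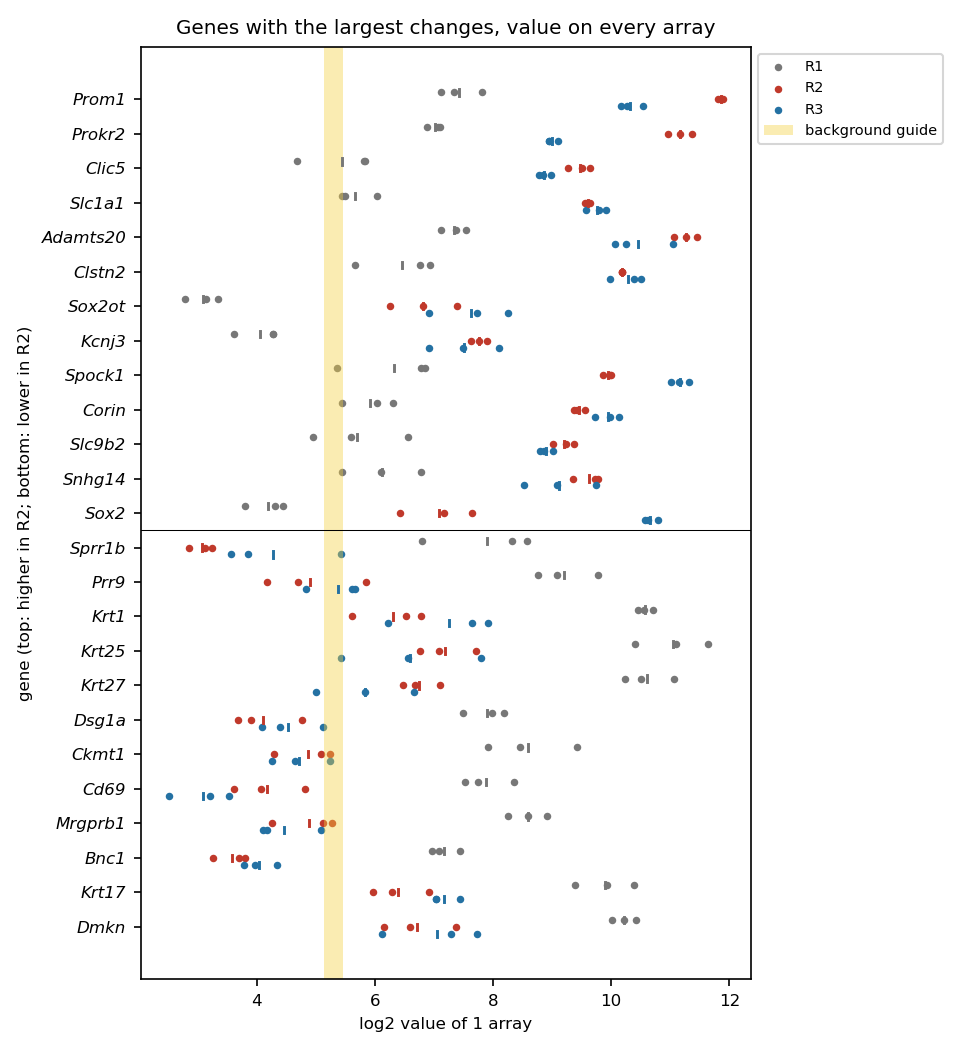
Log2 value on every array (horizontal axis) of the 12 largest rises, Sox2 and the 12 largest falls (vertical axis), with R1 in grey, R2 in red and R3 in blue, 3 arrays each. Short bars are gate means, and the yellow band is the range of the background guide, 5.14 to 5.46. Prom1 lay between 7.12 and 7.82 in R1 and between 11.81 and 11.89 in R2.

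Genes known from the papilla were described in 3 groups. Of 30 measured secreted signals 13 were called higher, all 13 of them in every fit with 1 array left out, and 2 lower, with a median log2 change of 0.72. Inhba, which encodes the subunit of activin A, read 9.46, 9.40 and 9.17 on the R1 arrays against 12.50, 12.48 and 12.27 on the R2 arrays. It was 8.42-fold higher in R2 (log2 change 3.07 ± 0.13 SE, adjusted p = 2.71e-06), and its R2 arrays lay close together. The R-spondins, secreted enhancers of Wnt signalling, rose for Rspo1 (3.24-fold), Rspo2 (3.67-fold) and Rspo3 (2.31-fold), whereas Rspo4 was 1.44-fold lower. Rspo1 read 9.53, 9.58 and 9.48 in R1 and 11.21, 11.26 and 11.20 in R2, with little spread within either gate. The fall of Rspo4 rests on values near the guide and, of the fits with 1 array left out, was called only without R1 replicate 4. Without R1 replicate 2, R1 replicate 5 or any 1 of the R2 arrays, the count of lower secreted signals was 1, Sfrp2. Igfbp3 rose 2.9-fold and Spon1, an extracellular matrix protein, 1.77-fold. Fgf7 and Fgf10, growth factors for epithelium, had log2 differences of 0.96 and 0.74 and were not called, although Fgf7 was with the mouse as a fixed block (adjusted p = 0.0183) and Fgf10 without R1 replicate 4.

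Of 22 measured transcription factors of the papilla 16 were called higher and 1 lower, with a median log2 change of 0.92. Leaving out each array in turn kept 14 of the 16 rises in all 6 fits. Prdm1, the repressor Blimp1, read 7.51, 8.08 and 7.86 on the R1 arrays against 10.43, 10.60 and 10.77 on the R2 arrays, 6.88-fold higher in R2 (log2 change 2.78 ± 0.16 SE, adjusted p = 1.33e-05). Runx3 read 9.03, 9.41 and 9.23 in R1 and 10.80, 10.59 and 10.81 in R2, 2.85-fold higher in R2 (log2 change 1.51 ± 0.14 SE, adjusted p = 0.000148), and Tbx18, a T-box factor of early papillae, read 7.58, 7.61 and 7.97 on the R1 arrays against 8.88, 8.71 and 8.80 on the R2 arrays, 2.1-fold higher in R2 (log2 change 1.07 ± 0.16 SE, adjusted p = 0.0021). All 3 factors were higher on each R2 array than on any R1 array. Foxd1 rose 1.85-fold, Alx4 2.4-fold, the Wnt effector Lef1 1.86-fold, Zic1 1.87-fold and Glis2 1.96-fold. Twist2, a mesenchymal repressor, read 10.75, 11.09 and 11.11 in R1 and 10.23, 9.71 and 9.91 in R2 and was the 1 factor called lower, at 2.05-fold. Sox18, a factor of both papilla and vessels, read 7.81, 8.61 and 7.95 on the R1 arrays against 10.65, 10.77 and 10.69 on the R2 arrays, 5.99-fold higher in R2 (log2 change 2.58 ± 0.25 SE, adjusted p = 0.000193).

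The list of surface and matrix genes of the papilla holds Prom1, which the sort selected, so it was left out of the count. Of the 18 other measured genes 5 were called higher and 3 lower, with a median of 0.31. Lamc3, a laminin chain, read 7.12, 7.10 and 7.25 in R1 and 9.41, 10.05 and 9.92 in R2, 6.22-fold higher in R2 (log2 change 2.64 ± 0.20 SE, adjusted p = 4.97e-05). Itga8, an integrin chain that binds nephronectin, read 9.68, 10.02 and 9.84 on the R1 arrays against 11.73, 11.77 and 11.99 on the R2 arrays, 3.95-fold higher in R2 (log2 change 1.98 ± 0.13 SE, adjusted p = 2.36e-05). Alpl read 7.72, 6.96 and 6.30 in R1 and 9.18, 9.20 and 9.06 in R2, 4.44-fold higher in R2 (log2 change 2.15 ± 0.29 SE, adjusted p = 0.00119). The widest R1 spread of these 3 genes was that of Alpl, and its gates still did not overlap. The falls were those of Itga9 (1.8-fold), Tnc (1.51-fold) and Mfap4 (1.79-fold), and Mfap4 was not called without R1 replicate 4, R2 replicate 4 or R2 replicate 5. Alpl, Corin, Sox18 and Tbx18 were set as defining papilla markers with earlier results of these data known, and each was called higher in R2. Sox18 is also a gene of vessels, whose markers rose too. Over the 3 papilla lists without Prom1, 34 of 70 measured genes were called higher, 6 lower and 30 not at all.

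Markers of blood vessel endothelium rose in R2 beside the papilla genes. Of 25 measured markers 22 were called higher and 0 lower, with a median log2 change of 1.78, and 16 of the 22 were called in every fit with 1 array left out. The log2 of their summed linear values was 11.91 to 12.05 on R1 arrays, 13.38 to 13.66 on R2 arrays and 11.37 to 11.52 on R3 arrays. Kdr, a VEGF receptor, read 7.01, 7.05 and 7.18 on the R1 arrays against 9.46, 9.49 and 9.44 on the R2 arrays, 5.21-fold higher in R2 (log2 change 2.38 ± 0.11 SE, adjusted p = 5.06e-06). Pecam1, the junction protein CD31, read 7.77, 7.68 and 7.76 in R1 and 9.49, 9.61 and 9.46 in R2, 3.44-fold higher in R2 (log2 change 1.78 ± 0.27 SE, adjusted p = 0.00211). Cdh5, the cadherin of vessel walls, read 7.49, 8.0 and 6.69 on the R1 arrays against 9.18, 8.48 and 8.65 on the R2 arrays, 2.6-fold higher in R2 (log2 change 1.38 ± 0.32 SE, adjusted p = 0.0215), and lost its call without R1 replicate 2 or R2 replicate 2. All R2 arrays of these 3 defining genes were above the background guide and above every R1 array. Flt1 rose 6.35-fold, Mmrn2 7.23-fold and the adhesion receptor gene Adgrf5 3.89-fold. The R1 mean of Mmrn2, 5.07, was below the background guide, so its fold rests on a dim R1 level. Of 6 lymphatic markers 3 were called higher, Lyve1 (2.36-fold), Mmrn1 (2.44-fold) and the lymphatic factor Prox1 (1.73-fold), and Pdpn was called lower. Mmrn1 lost its call without R2 replicate 4 and Prox1 without R1 replicate 2. Without R1 replicate 5 or R2 replicate 5 the number of lower lymphatic markers was 0. The part of endothelial cells in the gene groups of R2 was not tested.

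The markers of vessel wall cells split. Of 15 pericyte and smooth muscle markers 3 were called higher and 5 lower, and their summed levels overlapped between the gates. Rgs5, the pericyte marker, read 11.35, 11.08 and 11.52 in R1 and 8.72, 8.64 and 9.57 in R2, 5.07-fold lower in R2 (log2 change -2.34 ± 0.32 SE, adjusted p = 0.00119), and the channel genes Kcnj8 and Abcc9, which form the potassium channel of pericytes, fell 4.99-fold and 2.98-fold. Acta2, smooth muscle actin, went the other way and read 10.85, 11.01 and 10.40 on the R1 arrays against 12.14, 11.92 and 12.03 on the R2 arrays, 2.43-fold higher in R2 (log2 change 1.28 ± 0.17 SE, adjusted p = 0.001). The number of lower markers was 3 without R1 replicate 2, R1 replicate 4 or any 1 of the R2 arrays.

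Epithelial markers were lower in R2. Of 14 basal keratinocyte markers 12 were called lower and 0 higher (median -2.54), of 20 suprabasal markers 11 (median -1.24) and of 21 hair shaft and inner root sheath markers 9 (median -0.77). The summed level of the basal markers was 13.99 to 14.68 in R1 and 11.69 to 11.86 in R2. That of the suprabasal markers was 13.79 to 14.02 against 11.35 to 11.66, and that of the hair markers 12.34 to 13.28 against 10.22 to 10.52. Krt5 read 13.27, 12.60 and 12.33 in R1 and 9.17, 9.45 and 9.45 in R2, and Krt14 read 10.93, 10.33 and 10.10 on the R1 arrays against 7.21, 7.28 and 7.15 on the R2 arrays, both keratins of the basal layer. R2 thus held less of both than R1 but stayed above the background guide.

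Many immune markers fell too. Of 10 mast cell markers 9 were called lower (median -2.89), with summed levels of 13.58 to 14.09 in R1 and 10.66 to 11.25 in R2. Tpsb2, a tryptase, read 9.76, 9.75 and 9.43 in R1 and 6.52, 7.13 and 6.56 in R2, 7.53-fold lower in R2 (log2 change -2.91 ± 0.18 SE, adjusted p = 1.81e-05), and the other protease genes Mcpt4 and Cma1 fell 10.5-fold and 10-fold. Of 18 macrophage and dendritic cell markers 6 fell, led by the class II genes Cd74 (7.85-fold) and H2-Ab1 (4.44-fold), and of 13 lymphocyte markers 7 fell. Most of the lymphocyte list was dim: 11 of the 13 had a mean over the 9 arrays no higher than the top of the background guide. Gzma, for example, averaged 5.27 in R1 and 3.29 in R2, whereas Cd69 averaged 7.88 in R1. Ptprc, the leukocyte antigen CD45, read 8.27, 9.10 and 8.98 on the R1 arrays against 6.45, 6.68 and 5.44 on the R2 arrays, 6.04-fold lower in R2 (log2 change -2.59 ± 0.40 SE, adjusted p = 0.00262).

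The pigment and nerve markers that were called were mostly lower as well. Of 10 melanocyte markers 6 were called lower and 1 higher, with a median log2 change of -1.17. Their summed levels overlapped between the gates, at 11.61 to 11.95 in R1 and 11.56 to 11.85 in R2. These sums include Ednrb, the 1 rise, at 11.02 to 11.27 in R2, so the overlap does not show equal levels of the other markers. Dct, an enzyme of melanin synthesis, read 9.35, 9.74 and 9.92 in R1 and 8.03, 6.79 and 6.95 in R2, 5.33-fold lower in R2 (log2 change -2.41 ± 0.44 SE, adjusted p = 0.00635). The 1 rise was Ednrb, the endothelin receptor B, which read 9.53, 9.73 and 9.60 on the R1 arrays against 11.21, 11.02 and 11.27 on the R2 arrays, 2.93-fold higher in R2 (log2 change 1.55 ± 0.12 SE, adjusted p = 5.17e-05), and is known from vessels as well. Of 11 Schwann and glial markers 5 were called lower, with summed levels of 12.42 to 12.61 in R1 and 11.87 to 11.91 in R2. Erbb3, the neuregulin receptor, fell 5.51-fold, whereas Sox10, the factor of both lineages, had a log2 difference of -0.46 and was not called, except with the mean of its probe sets (adjusted p = 0.00609). The number of lower glial markers was 3 without R1 replicate 2 or R1 replicate 5. The part of these cell types in the falls described here was not tested.

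Of 20 dermal fibroblast markers 9 were called lower and 1 higher, with a median of -0.45, and all 10 were called in every fit with 1 array left out. Their summed level was 16.38 to 16.43 in R1 and 15.77 to 15.95 in R2. Dcn, decorin, read 12.72, 12.78 and 12.70 in R1 and 11.39, 10.94 and 11.26 in R2, 2.9-fold lower in R2 (log2 change -1.54 ± 0.14 SE, adjusted p = 0.000125), and Dpp4, a marker of some fibroblast lineages, read 9.90, 10.10 and 9.99 on the R1 arrays against 7.75, 7.26 and 7.71 on the R2 arrays, 5.38-fold lower in R2 (log2 change -2.43 ± 0.26 SE, adjusted p = 0.000292). Lum fell 3.01-fold. Ebf1, an early B cell factor expressed in mesenchyme, was the 1 rise and read 9.42, 9.22 and 9.69 in R1 and 10.92, 11.0 and 11.15 in R2, 2.99-fold higher in R2 (log2 change 1.58 ± 0.15 SE, adjusted p = 0.000168). Pdgfra, a receptor gene of most dermal fibroblasts, had a log2 difference of 0.13 and was not called, except as higher with the mean of its probe sets (adjusted p = 0.0448). Of 15 skeletal muscle markers 1 rose, the slow troponin gene Tnnt1 (6.22-fold), and 4 fell, and without R1 replicate 2, R1 replicate 4 or R2 replicate 4 the number of falls was 2, while without R2 replicate 5 the number of rises was 2. Myod1, the muscle factor, was at 5.27 to 5.53 in R2, near the guide. Of 9 adipocyte lineage markers 1 rose, Zfp423 (3.98-fold), and 1 fell, Lpl (3.75-fold), and without R2 replicate 2 the number of falls was 2. Limma called 0 of 5 erythroid markers, and 0 at an unadjusted p under 0.05. Of these 5 markers 4 had a mean over the 9 arrays no higher than the top of the background guide, so the counts say little about erythroid cells.

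**Figure D3:**
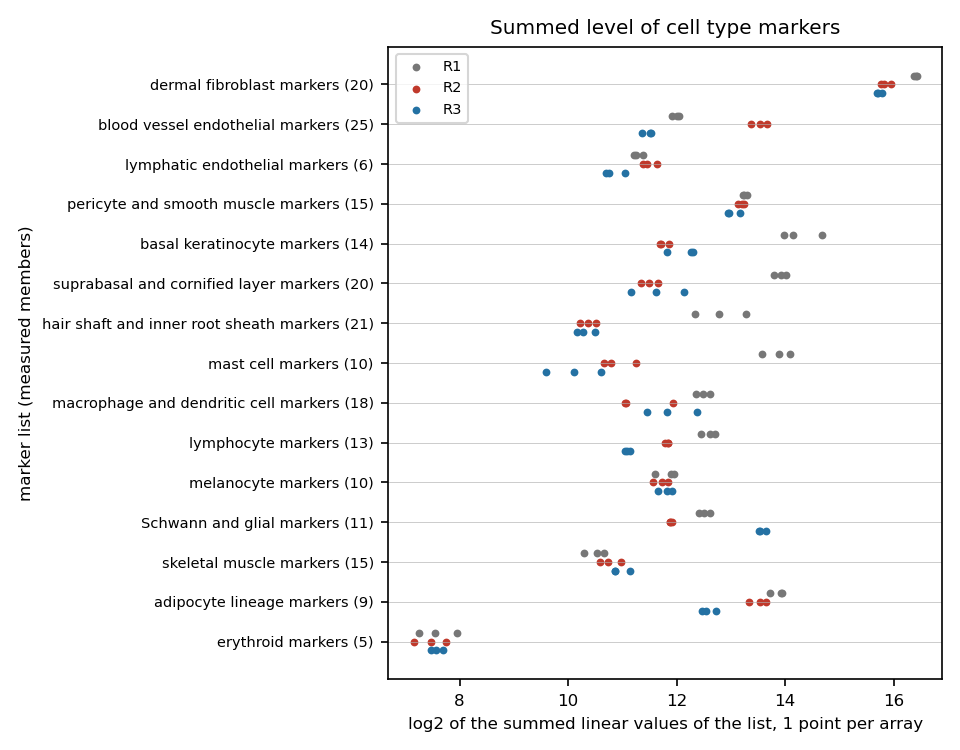
Log2 of the summed linear values of each marker list (vertical axis, with the number of measured members) on every array, R1 in grey, R2 in red and R3 in blue. R2 lies above R1 for blood vessel endothelium (13.38 to 13.66 against 11.91 to 12.05) and below it for keratinocyte, hair, mast cell and fibroblast markers.

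Wnt genes moved in both directions. Of 15 ligands 2 were called higher (13.3%) and 1 lower (6.67%), against 6.89% and 6.16% of all genes. Wnt5a, a ligand known mainly from beta-catenin-independent signalling, read 9.54, 9.73 and 9.59 on the R1 arrays against 11.0, 11.36 and 11.58 on the R2 arrays, 3.23-fold higher in R2 (log2 change 1.69 ± 0.17 SE, adjusted p = 0.0002). The calls of Wnt9a and Wnt4 were lost in most fits with 1 array left out: the count of higher ligands was 1 in the fits without R1 replicate 2, R1 replicate 4, R2 replicate 2 or R2 replicate 5, and that of lower ligands 0 without any 1 of the R1 arrays or R2 replicate 4. With the mouse as a fixed block 1 ligand was higher and 2 were lower, and Wnt9a had an adjusted p of 0.052. Of 18 receptors and agonist receptors 1 was called higher (5.56%, near the share of all genes) and 5 lower (27.8%). Lgr5, a receptor of R-spondins, read 8.14, 8.10 and 7.79 in R1 and 6.04, 6.46 and 5.49 in R2, 4.04-fold lower in R2 (log2 change -2.01 ± 0.23 SE, adjusted p = 0.000389), and Ror1, a receptor of Wnt5a, read 8.37, 8.47 and 8.63 on the R1 arrays against 6.62, 6.62 and 5.89 on the R2 arrays, 4.33-fold lower in R2 (log2 change -2.12 ± 0.25 SE, adjusted p = 0.000504). The gates did not overlap for either receptor gene. Among frizzled receptors Fzd3 rose 2.08-fold and Fzd5 fell 2.08-fold. The number of lower receptors was 3 without R1 replicate 2, R1 replicate 4 or any 1 of the R2 arrays.

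Of 24 Wnt antagonists and feedback targets 6 were called higher and 3 lower, and these 9 genes were called in every fit with 1 array left out, with 1 more called lower without R1 replicate 4. Frzb, a secreted Wnt antagonist, read 6.48, 6.59 and 6.91 in R1 and 8.37, 8.70 and 8.76 in R2, 3.86-fold higher in R2 (log2 change 1.95 ± 0.17 SE, adjusted p = 9.49e-05), and Wif1, another, rose 1.77-fold. Sfrp2, a secreted antagonist as well, went down and read 12.51, 12.68 and 12.54 on the R1 arrays against 11.44, 11.47 and 10.98 on the R2 arrays, 2.43-fold lower in R2 (log2 change -1.28 ± 0.16 SE, adjusted p = 0.000749). Feedback genes differed as well: Nkd2 rose 2.35-fold and Notum 2.45-fold, whereas Axin2 was 1.46-fold and Rnf43 3.89-fold lower. All R2 values of Rnf43 were below the background guide.

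Several ligands of the BMP family were higher. Of 10 BMP and GDF ligands 3 were called higher and 0 lower, with a median of 0.48, and the count of rises was 5 without R2 replicate 5. Bmp7 read 7.40, 7.29 and 7.56 in R1 and 9.91, 10.05 and 9.90 in R2, 5.81-fold higher in R2 (log2 change 2.54 ± 0.13 SE, adjusted p = 6.39e-06). Bmp4 read 9.35, 9.04 and 8.96 on the R1 arrays against 10.55, 10.41 and 10.36 on the R2 arrays, 2.5-fold higher in R2 (log2 change 1.32 ± 0.14 SE, adjusted p = 0.000266), and Gdf10 rose 3.24-fold. The R2 arrays of Bmp7 and Bmp4 lay close together and well above R1. Of 29 antagonists, receptors and targets 2 were called higher (6.9%, against 6.89% of all genes) and 4 lower (13.8%, against 6.16%). Grem1, a secreted BMP antagonist, read 10.49, 10.21 and 10.45 in R1 and 9.09, 9.09 and 8.89 in R2, 2.56-fold lower in R2 (log2 change -1.36 ± 0.18 SE, adjusted p = 0.00101), and Nbl1, another, fell 2.25-fold. The 2 rises, Id1 (1.8-fold) and Smad7 (1.63-fold), which are targets of BMP signalling, lost their calls: the count was 1 without R1 replicate 2, R2 replicate 2 or R2 replicate 5 and 0 without R1 replicate 4, R1 replicate 5 or R2 replicate 4. The count of falls was 2 in the fits without R1 replicate 4, R1 replicate 5 or R2 replicate 2. The antagonists Nog and Fst had log2 differences of 0.47 and -0.35 and were not called.

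The activin subunits diverged. Inhbb, which encodes the subunit of activin B, read 10.33, 9.98 and 10.13 on the R1 arrays against 8.35, 8.21 and 8.22 on the R2 arrays, 3.7-fold lower in R2 (log2 change -1.89 ± 0.15 SE, adjusted p = 5.55e-05), against the rise of Inhba given above. Of 23 activin and TGF-beta genes 3 were called higher and 5 lower. Ltbp1, which binds latent TGF-beta in the matrix, rose 2.84-fold and the receptor gene Tgfbr1 1.98-fold, whereas the matrix protein gene Tgfbi read 11.42, 11.25 and 11.36 in R1 and 10.21, 9.79 and 9.81 in R2, 2.65-fold lower in R2 (log2 change -1.41 ± 0.16 SE, adjusted p = 0.000454). The number of falls was 2 without R1 replicate 2 or R1 replicate 4 and 3 without any 1 of the R2 arrays.

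For FGF signalling limma called 0 of 14 ligands, with 6 at an unadjusted p under 0.05, and 1 was called higher without R1 replicate 4 and 1 with the mouse as a fixed block. Of 19 receptors and feedback genes 7 were called higher and 3 lower. Il17rd, the membrane inhibitor Sef, read 9.37, 9.16 and 9.23 on the R1 arrays against 10.82, 10.71 and 10.95 on the R2 arrays, 2.98-fold higher in R2 (log2 change 1.57 ± 0.14 SE, adjusted p = 0.000101). Flrt2, a membrane protein that binds FGF receptors, rose 2.9-fold, the phosphatase gene Dusp4 3.17-fold and the receptor gene Fgfr1 2.06-fold. Etv4 and Etv5, factors induced by FGF signalling, fell 1.63-fold and 1.6-fold. The count of rises was 4 without R1 replicate 2 or R2 replicate 5. That of falls was 1 without R1 replicate 2 or R2 replicate 2 and 0 without R1 replicate 4, R2 replicate 4 or R2 replicate 5.

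Of 17 hedgehog genes 4 were called higher and 2 lower, in all 6 fits with 1 array left out. Scube3 and Scube1, secreted proteins that help release hedgehog ligands, rose 4.72-fold and 3.44-fold. Gli1, a target of the pathway, read 9.54, 9.76 and 9.12 in R1 and 10.85, 10.79 and 10.64 in R2, 2.43-fold higher in R2 (log2 change 1.28 ± 0.19 SE, adjusted p = 0.00181), and Ptch1, receptor and target, rose 1.76-fold, a call lost with the mean of all its probe sets (adjusted p = 0.108). The co-receptor genes went down: Cdon read 10.65, 10.66 and 10.92 on the R1 arrays against 9.55, 9.54 and 9.40 on the R2 arrays, 2.38-fold lower in R2 (log2 change -1.25 ± 0.17 SE, adjusted p = 0.0012), and Gas1 read 11.03, 11.26 and 11.51 in R1 and 10.09, 10.16 and 10.05 in R2, 2.25-fold lower in R2 (log2 change -1.17 ± 0.16 SE, adjusted p = 0.00107).

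Notch signalling passes between touching cells. When a ligand of the Delta or Jagged family binds, the inner part of the receptor is cut free. This part joins the DNA-binding protein RBPJ and turns on Hes and Hey genes. Promoters of the effector genes Hey2 and Hes5 are shown because both rose. Of 6 genes looked up, Hey2, Hes5 and Nrarp matched the promoter table, and Hey1, Heyl and Hes1 did not. The windows run from 250 bases before to 50 bases from the start site on, in GRCm38.p6, from RefSeq, and capitals mark TGGGAA, the core motif of RBPJ, or TTCCCA, its reverse complement. Hey2 lies on the minus strand at chr10:30842734-30843033 and Hes5 on the plus strand at chr4:154960673-154960972.
Hey2: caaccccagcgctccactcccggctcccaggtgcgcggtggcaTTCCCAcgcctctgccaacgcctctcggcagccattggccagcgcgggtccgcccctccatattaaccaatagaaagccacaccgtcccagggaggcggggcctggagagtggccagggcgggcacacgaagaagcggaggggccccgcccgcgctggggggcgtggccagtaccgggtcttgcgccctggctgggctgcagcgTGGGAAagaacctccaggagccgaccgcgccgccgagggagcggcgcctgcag
Hes5: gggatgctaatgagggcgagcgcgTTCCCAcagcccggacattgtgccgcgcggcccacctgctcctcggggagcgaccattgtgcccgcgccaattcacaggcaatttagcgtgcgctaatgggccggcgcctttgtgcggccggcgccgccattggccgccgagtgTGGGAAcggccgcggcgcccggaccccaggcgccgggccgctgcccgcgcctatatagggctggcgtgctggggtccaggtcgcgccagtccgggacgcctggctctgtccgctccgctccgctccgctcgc
Each of these windows holds 2 matches, at -207 and -3 bases from the start site of Hey2 and at -226 and -82 from that of Hes5. Hes5 was added after its values were seen. The window of Nrarp (chr2:25180508-25180807, plus strand) holds 0. At least 1 match was found in 25.6% of 32851 RefSeq promoters of this length and 2 or more in 3.79%. The share with a match was 24.1% among genes called higher, 23.7% among genes called lower and 24.2% among all genes tested. A match is a description of the letters only.

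Of 22 Notch modulators and effectors 6 were called higher and 1 lower, with a median of 0.42. Hey2 read 7.18, 7.10 and 7.09 on the R1 arrays against 9.77, 9.90 and 9.78 on the R2 arrays, 6.46-fold higher in R2 (log2 change 2.69 ± 0.11 SE, adjusted p = 2.71e-06). Hes5 read 6.08, 5.86 and 6.84 in R1 and 8.96, 8.99 and 9.41 in R2, 7.26-fold higher in R2 (log2 change 2.86 ± 0.30 SE, adjusted p = 0.000266), with one R1 array above the others. All R2 arrays of both genes were above all R1 arrays. Hey1 rose 4.16-fold, Heyl 2.62-fold and the ubiquitin ligase gene Dtx1 3.6-fold. Hes1, a further effector, read 6.88, 6.99 and 6.68 on the R1 arrays against 7.61, 7.59 and 7.52 on the R2 arrays, 1.65-fold higher in R2 (log2 change 0.72 ± 0.20 SE, adjusted p = 0.0409), but its call was lost without any 1 of the 6 arrays and with the mouse as a fixed block (adjusted p = 0.0665). Nrarp, a feedback inhibitor, was 1.6-fold lower, and the count of falls was 0 without R1 replicate 2, R1 replicate 4 or any 1 of the R2 arrays and with the mouse as a fixed block (adjusted p = 0.0521 for Nrarp). Ligands and receptors also rose. Of 7 ligands 3 were called higher, and Dll1 read 8.81, 8.46 and 7.94 in R1 and 11.24, 11.56 and 11.25 in R2, 7.7-fold higher in R2 (log2 change 2.95 ± 0.21 SE, adjusted p = 3.6e-05). Jag1 rose 2.61-fold and Dll4, known from vessels, 1.64-fold. Dlk1, a Delta-like protein that lacks the receptor-binding DSL domain, was the 1 fall and read 10.60, 10.53 and 10.43 on the R1 arrays against 8.99, 9.21 and 9.26 on the R2 arrays, 2.59-fold lower in R2 (log2 change -1.37 ± 0.21 SE, adjusted p = 0.00226). Of 4 receptors Notch4, known from endothelium, rose 4.7-fold and Notch1 2.15-fold, and the other 2 were not called. With the mouse as a fixed block Notch3 (log2 difference 0.47) was also called (adjusted p = 0.0411). Faint R1 signals limit the fold sizes of Notch4, Dtx1 and Dll4. On the R1 arrays these genes read 4.9 to 5.16, 4.63 to 5.03 and 5.0 to 5.18, under the guide's upper end of 5.46. In R3, where endothelial markers summed to 11.37 to 11.52, Hey2 averaged 10.37, Hey1 11.68, Jag1 11.66, Hes5 7.76, Dtx1 6.30 and Dll1 10.11, each above every R1 array. Of these, Hes5, Dll1, Hey1 and Dtx1 averaged below every R2 array, and Hey2 and Jag1 above them all. Notch1 (10.31) and Notch4 (5.44) averaged below every R2 array, and their R3 arrays overlapped those of R1. The R3 means of Heyl (8.85) and Dll4 (5.14) lay within the R1 range, and those of Hes1 (6.56), Nrarp (7.63) and Dlk1 (8.30) below every R1 array.

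**Figure D4:**
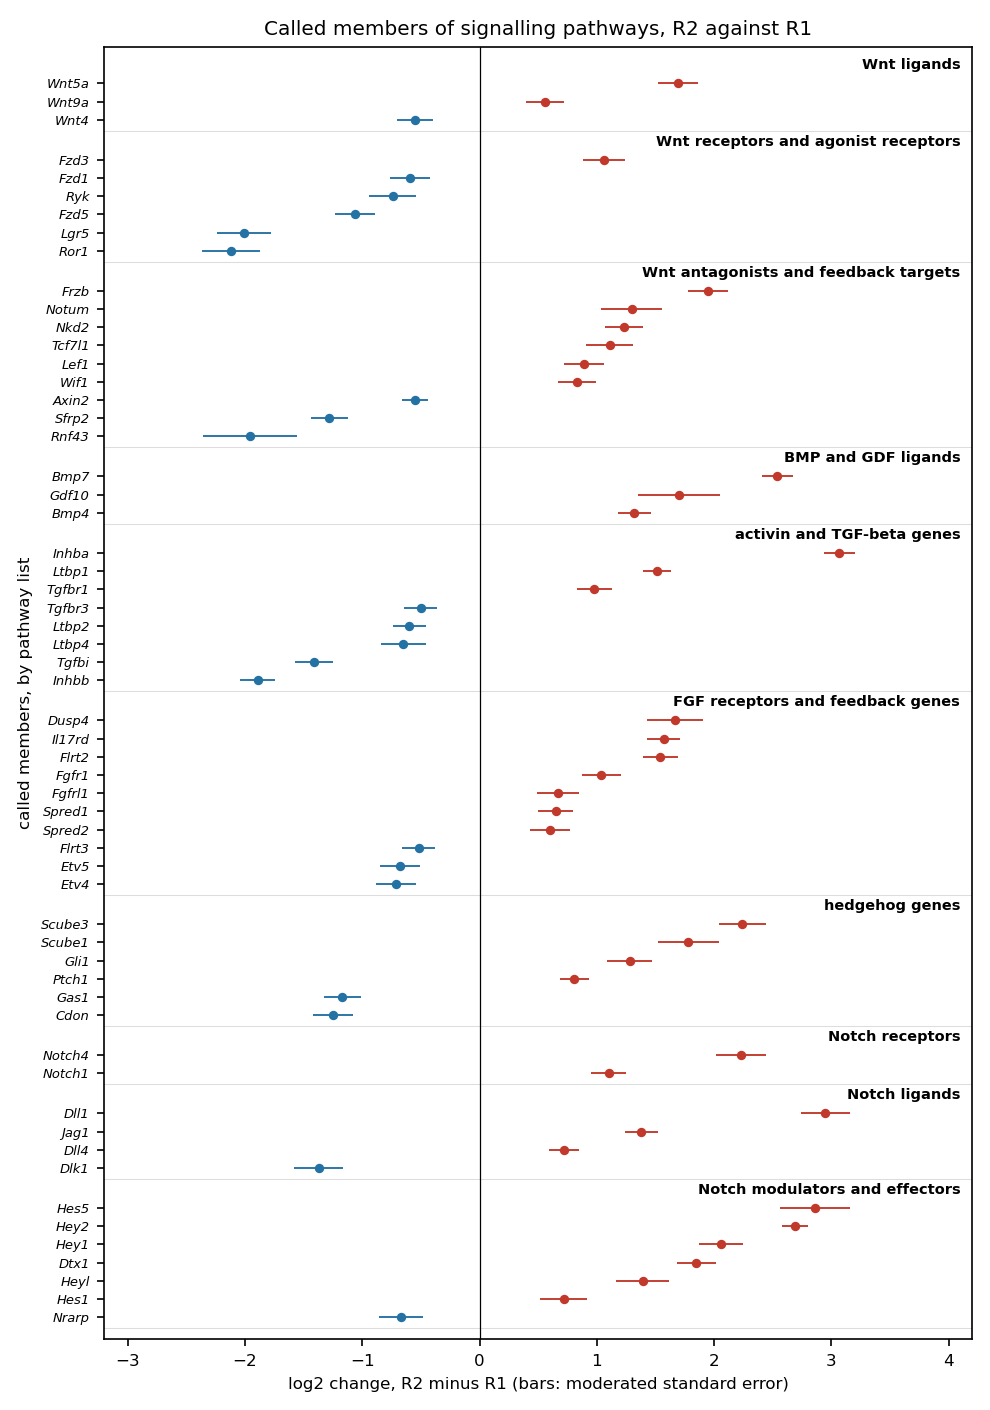
Log2 change from R1 to R2 (horizontal axis) of the called members of 10 signalling lists (vertical axis, grouped by list), with the moderated standard error as a bar and members not called left out. Red points are higher and blue points lower in R2. Inhba (3.07) and Dll1 (2.95) lie farthest to the right, and Ror1 (-2.12) and Lgr5 (-2.01) farthest to the left.

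IGF binding proteins changed in both directions. Of 16 IGF genes 2 were called higher and 4 lower. Igfbp3 read 10.79, 10.56 and 11.0 in R1 and 12.10, 12.27 and 12.60 in R2, 2.9-fold higher in R2 (log2 change 1.54 ± 0.17 SE, adjusted p = 0.000315), and Igfbp7 rose 2.09-fold. Igfbp5 read 11.07, 10.62 and 10.35 on the R1 arrays against 9.10, 8.80 and 8.51 on the R2 arrays, 3.66-fold lower in R2 (log2 change -1.87 ± 0.24 SE, adjusted p = 0.000804). The ligand gene Igf2 was 1.52-fold lower, and Igf1 (log2 difference 0.26) was not called.

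Guidance genes steer axons and vessels. Of 18 ephrins and Eph receptors 4 were called higher and 1 lower. Ephb1 read 7.10, 6.01 and 6.58 in R1 and 8.87, 9.13 and 8.81 in R2, 5.18-fold higher in R2 (log2 change 2.37 ± 0.28 SE, adjusted p = 0.000529), and Ephb6 (3.93-fold), Epha3 (2.51-fold) and Epha7 (2.52-fold) rose, so that all 4 rises were receptors and the 1 fall a ligand, Efna5 (1.96-fold). The number of falls was 2 without R1 replicate 5. Of 20 slits, netrins and their receptors 5 were called higher and 1 lower. The netrin-G1 gene Ntng1 rose 3.29-fold, the netrin receptor gene Unc5b 2.54-fold, Slit2 1.75-fold and the endothelial receptor gene Robo4 5.09-fold. The number of falls was 0 in the fits without R1 replicate 2, R1 replicate 4, R2 replicate 2 or R2 replicate 5, and with the mouse as a fixed block 8 rose and 0 fell. Of 26 semaphorins and plexins 6 were called higher and 5 lower. Sema3g read 8.69, 8.08 and 8.14 on the R1 arrays against 10.41, 10.25 and 10.46 on the R2 arrays, 4.2-fold higher in R2 (log2 change 2.07 ± 0.17 SE, adjusted p = 6.51e-05), whereas Plxnc1, the receptor of Sema7a, read 7.52, 8.36 and 8.01 in R1 and 4.99, 5.94 and 4.72 in R2, 6.69-fold lower in R2 (log2 change -2.74 ± 0.34 SE, adjusted p = 0.000678). Sema7a itself rose 2.49-fold and Sema3e fell 3.27-fold. The number of rises was 3 without R1 replicate 2, R1 replicate 5 or any 1 of the R2 arrays.

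Among neurotrophins, the GDNF family and their receptors, 4 of 12 were called higher and 2 lower. Gfra1, the co-receptor of GDNF, read 7.04, 6.57 and 6.40 on the R1 arrays against 9.67, 9.67 and 9.73 on the R2 arrays, 8.12-fold higher in R2 (log2 change 3.02 ± 0.23 SE, adjusted p = 4.84e-05). Gdnf, its ligand, rose 2.02-fold. Gfra2, the co-receptor of neurturin, read 12.45, 12.17 and 12.21 in R1 and 10.94, 10.57 and 10.76 in R2, 2.87-fold lower in R2 (log2 change -1.52 ± 0.14 SE, adjusted p = 0.000157), and Ret, the signalling receptor of the family, was 2.42-fold lower. The calls of Ntrk2, Ntrk3 and Ret depended on single arrays: 2 genes rose without R1 replicate 4, R1 replicate 5, R2 replicate 2 or R2 replicate 4, and 1 fell without R1 replicate 2, R1 replicate 4 or any 1 of the R2 arrays. Of 20 growth factor receptors and ligands of mesenchyme 1 was called higher, Lifr (1.75-fold), and 4 lower, among them Egfr (2.08-fold), beside the fall of Erbb3.

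Of 29 chemokines and cytokines 1 was called higher and 11 lower, with a median of -0.61, and 6 were called lower without R2 replicate 4. Ccl11, eotaxin, read 7.91, 7.65 and 7.74 on the R1 arrays against 5.43, 5.13 and 5.30 on the R2 arrays, 5.58-fold lower in R2 (log2 change -2.48 ± 0.13 SE, adjusted p = 7.12e-06). Tslp, a cytokine of keratinocytes, read 8.68, 7.41 and 8.87 in R1 and 6.10, 5.99 and 6.02 in R2, 4.86-fold lower in R2 (log2 change -2.28 ± 0.37 SE, adjusted p = 0.0033). Cxcl12 fell 2.7-fold, a call lost with the mean of all its probe sets (adjusted p = 0.21), and its receptor gene Cxcr4 was the 1 rise, at 11.13, 11.20 and 10.87 on the R1 arrays against 12.54, 12.59 and 12.70 on the R2 arrays, 2.92-fold higher in R2 (log2 change 1.54 ± 0.12 SE, adjusted p = 6.43e-05). Of 17 retinoid genes 3 were called higher and 1 lower, with 0 lower without any 1 of the R1 arrays, R2 replicate 2 or R2 replicate 5. The retinal reductase gene Dhrs3 rose 2.77-fold and Crabp2, a carrier of retinoic acid, 2.47-fold.

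Basement membrane genes differed by chain. Of 29 measured 12 were called higher and 6 lower, with a median of 0.02. Frem1, a protein at the border of epithelium and mesenchyme, read 9.61, 9.48 and 9.49 in R1 and 11.76, 11.86 and 11.89 in R2, 4.96-fold higher in R2 (log2 change 2.31 ± 0.12 SE, adjusted p = 6.81e-06). Lama2 read 10.57, 10.51 and 10.54 on the R1 arrays against 12.05, 12.06 and 12.15 on the R2 arrays, 2.92-fold higher in R2 (log2 change 1.55 ± 0.12 SE, adjusted p = 5.17e-05), and the nidogen genes Nid1 and Nid2 rose 1.76-fold and 3.02-fold. Agrin (Agrn) rose 2.64-fold and pikachurin (Egflam) 2.89-fold. All of these R2 levels were far above the guide. The falls included Col17a1 (6.2-fold), Lamb3 (2.58-fold) and Lama5 (2.24-fold), chains made by keratinocytes, and Fras1 (3.29-fold), the epithelial partner of Frem1. They stand beside the fall of 12 of 14 basal keratinocyte markers, whose part was not tested.

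Most of the dermal matrix genes called were lower. Of 19 fibrillar and related collagens 1 was called higher (5.26%) and 4 lower (21.1%), against 6.89% and 6.16% of all genes. Col11a1, a minor fibril collagen, read 8.01, 7.99 and 7.60 in R1 and 10.83, 10.57 and 10.58 in R2, 6.94-fold higher in R2 (log2 change 2.79 ± 0.15 SE, adjusted p = 7.24e-06), whereas Col5a1 (1.54-fold) and Col16a1 (1.7-fold) fell. The main collagen genes Col1a1, Col1a2 and Col3a1 had log2 differences of -0.39, -0.32 and -0.31 and were not called, but each was called lower with the mean of all its probe sets (adjusted p = 0.00748, 0.0393 and 0.0239). The count of higher collagens was 2 without R1 replicate 2 or R2 replicate 5 and with the mouse as a fixed block, and that of lower ones 2 without R1 replicate 2 or R2 replicate 2. Of 13 small leucine-rich proteoglycans 4 fell (30.8%), with Aspn at 2.2-fold and Ogn at 1.89-fold beside Dcn and Lum. The 1 rise (7.69%, near the share of all genes) was Omd. The count of rises was 0 without R1 replicate 2, R1 replicate 4 or R2 replicate 2 and 2 with the mouse as a fixed block.

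Of 33 elastic fibre and matricellular genes 5 were called higher and 11 lower, and 7 were lower without R2 replicate 4. Tnxb, tenascin X, read 9.26, 9.35 and 8.74 on the R1 arrays against 6.35, 6.22 and 6.78 on the R2 arrays, 6.37-fold lower in R2 (log2 change -2.67 ± 0.24 SE, adjusted p = 0.000113). Thrombospondins Thbs1 and Thbs2 fell 3.31-fold and 2.67-fold, fibronectin (Fn1) 2.12-fold and elastin (Eln) 2.13-fold. Smoc1, a calcium-binding matricellular protein, went up and read 6.13, 4.98 and 6.0 in R1 and 8.66, 8.74 and 8.57 in R2, 7.75-fold higher in R2 (log2 change 2.96 ± 0.27 SE, adjusted p = 0.000133). Of 24 hyaluronan genes and large proteoglycans 6 were called higher and 4 lower, and these 10 were called in every fit with 1 array left out, beside up to 1 more in each direction. Acan, aggrecan, read 7.80, 8.0 and 7.70 on the R1 arrays against 10.22, 10.15 and 10.08 on the R2 arrays, 4.98-fold higher in R2 (log2 change 2.32 ± 0.15 SE, adjusted p = 1.79e-05), and its link protein genes Hapln1 and Hapln3 rose 5.8-fold and 3.01-fold. Gpc6, a glypican, read 10.43, 9.96 and 10.27 in R1 and 7.62, 7.69 and 7.56 in R2, 6.06-fold lower in R2 (log2 change -2.60 ± 0.17 SE, adjusted p = 2.32e-05). Vcan, versican, a known papilla proteoglycan, had a log2 difference of 0.32 and was not called, except with the mean of its probe sets (adjusted p = 0.0469).

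Among secreted proteases the ADAMTS genes called were mainly higher and the MMPs called mainly lower. Of 19 measured ADAMTS genes 5 were called higher and 1 lower, all 6 in every fit with 1 array left out, and 2 were lower without R2 replicate 2. Adamts18 read 6.48, 6.80 and 6.80 on the R1 arrays against 10.05, 10.11 and 10.27 on the R2 arrays, 10.9-fold higher in R2 (log2 change 3.45 ± 0.14 SE, adjusted p = 2.71e-06). Adamts15, which cleaves aggrecan and versican, read 7.89, 7.79 and 8.16 in R1 and 10.45, 10.71 and 10.66 in R2, 6.33-fold higher in R2 (log2 change 2.66 ± 0.14 SE, adjusted p = 6.81e-06), and Adamts3 and Adamts7 rose 2.79-fold and 2.32-fold. The gates did not overlap for Adamts18 or Adamts15, and the R2 arrays of each lay close together. Of 18 MMPs and TIMPs 1 was called higher (5.56%, against 6.89% of all genes) and 5 lower (27.8%, against 6.16%). Mmp2, gelatinase A, read 11.16, 10.93 and 10.89 on the R1 arrays against 9.75, 9.74 and 9.45 on the R2 arrays, 2.55-fold lower in R2 (log2 change -1.35 ± 0.14 SE, adjusted p = 0.000275), and Mmp23 fell 2.4-fold. The 1 rise was not called without any 1 of the 6 arrays or with the mouse as a fixed block, and the number of falls was 3 in the fits without R1 replicate 2, R1 replicate 5, R2 replicate 2 or R2 replicate 4.

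Ion channels differed by kind. Of 26 potassium channel genes 1 rose, Kcnj3, and 5 fell, and the number of rises was 2 without any 1 of the R2 arrays and with the mouse as a fixed block. Kcnj8 read 10.15, 9.89 and 10 in R1 and 7.92, 7.64 and 7.52 in R2, 4.99-fold lower in R2 (log2 change -2.32 ± 0.14 SE, adjusted p = 1.59e-05). Of 26 other ion channel genes 7 rose and 1 fell, with 0 lower without R1 replicate 2, R1 replicate 5, R2 replicate 2 or R2 replicate 5 and 2 lower with the mouse as a fixed block. Cacna1g, a T-type calcium channel, read 8.39, 8.58 and 8.80 on the R1 arrays against 10.29, 10.28 and 10.27 on the R2 arrays, 3.22-fold higher in R2 (log2 change 1.69 ± 0.21 SE, adjusted p = 0.000747), and the accessory subunit genes Cacna2d1 and Cacna2d3 rose 2.97-fold and 1.88-fold. Of 20 amino acid transporters 2 rose and 3 fell: Slc6a6, which carries taurine, rose 2.3-fold beside Slc1a1, whereas Slc7a5, which carries large neutral amino acids, read 8.81, 9.17 and 8.94 in R1 and 7.34, 7.17 and 7.55 in R2, 3.08-fold lower in R2 (log2 change -1.62 ± 0.18 SE, adjusted p = 0.000372). Of 30 G protein-coupled receptors of peptides and lipids 8 rose and 7 fell, and 5 rose without R1 replicate 4. Agtr2, a receptor of angiotensin, read 10.74, 10.73 and 10.79 on the R1 arrays against 8.39, 8.41 and 8.76 on the R2 arrays, 4.71-fold lower in R2 (log2 change -2.23 ± 0.13 SE, adjusted p = 1.33e-05), and Lpar1, of lysophosphatidic acid, fell 2.51-fold.

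Hox genes, which keep the record of body position, moved one way where they were called. Of 33 measured 10 were called higher and 0 lower, with a median of 0.44. The count of rises was 6 without R2 replicate 2 or R2 replicate 4, and 1 was called lower without R1 replicate 2. Hoxd10 read 5.53, 5.94 and 5.60 in R1 and 8.37, 7.93 and 7.79 in R2, 5.05-fold higher in R2 (log2 change 2.34 ± 0.22 SE, adjusted p = 0.00015). Hoxd1 read 6.44, 6.60 and 6.65 on the R1 arrays against 8.28, 8.15 and 8.44 on the R2 arrays, 3.31-fold higher in R2 (log2 change 1.72 ± 0.12 SE, adjusted p = 3.88e-05), and Hoxa9 read 10.48, 10.11 and 10.53 in R1 and 11.49, 11.49 and 11.20 in R2, 2.03-fold higher in R2 (log2 change 1.02 ± 0.15 SE, adjusted p = 0.00209). The gates did not overlap for these 3 genes. Hoxa5 rose 1.92-fold, Hoxc8 1.91-fold and Hoxd3 1.94-fold. Hoxd13, a gene of the distal limb and genital region, read 6.21, 6.94 and 5.16 on the R1 arrays against 9.34, 9.90 and 6.83 on the R2 arrays, with the R2 array of mouse 5 just below the highest R1 array. It was 6.01-fold higher in R2 (log2 change 2.59 ± 0.71 SE, adjusted p = 0.0424), a call lost without R1 replicate 2, R1 replicate 5, R2 replicate 2 or R2 replicate 4. In R3 Hoxd10 averaged 5.37 and Hoxd13 4.96, means below every R1 array, although the R3 arrays of Hoxd10 (5.02, 5.75 and 5.35) overlapped those of R1. The R3 means of Hoxd1 (7.94), Hoxa5 (8.29), Hoxc8 (10.23), Hoxd3 (6.12) and Hoxa9 (10.57) were above every R1 array, and that of Hoxa5 was within the R2 range. For Hoxa9 the single R3 arrays (10.68, 10.48 and 10.53) overlapped those of R1. The endothelial markers rose in 22 of 25 cases in the same comparison, and their part in the Hox values was not tested.

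The proliferation genes that were called were lower. Of 26 DNA replication genes 4 were called lower (15.4%, against 6.16% of all genes) and 0 higher. Their median was -0.42, and 14 had an unadjusted p under 0.05. Of 24 mitosis genes 1 was called lower (4.17%), with a median of -0.36 and 9 at an unadjusted p under 0.05. Among all 18193 genes 4822 had such a p. All 24 mitosis genes had a lower mean in R2. The number called lower was 0 without R2 replicate 4. With the mean of all probe sets 9 replication and 6 mitosis genes were called lower. Mcm3, a subunit of the replicative helicase, read 10.08, 9.61 and 9.77 in R1 and 8.63, 8.83 and 8.72 in R2, 2.14-fold lower in R2 (log2 change -1.09 ± 0.15 SE, adjusted p = 0.00137). Of 17 cyclin-dependent kinase inhibitors and D cyclins 1 rose and 4 fell. The retinoblastoma gene Rb1 rose 2.34-fold, whereas Cdkn1c (p57) fell 2.04-fold and Ccnd2 (cyclin D2) 1.79-fold.

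Of 25 immediate early and dissociation response genes, which can rise while tissue is digested, 5 were called higher and 2 lower, with a median of 0.18. Klf2 rose 2.1-fold and Nr4a1 1.72-fold, and Fos and Jun, with log2 differences of 0.34 and 0.15, were not called. The number of rises was 3 without R2 replicate 2 and 10 with a trended and robust variance prior, and that of falls 1 without any 1 of the 6 arrays. Limma called 0 of 16 glycolysis enzymes, with 4 at an unadjusted p under 0.05, and 1 was called lower without R2 replicate 4. Of 18 cholesterol synthesis enzymes 1 was called higher, Hsd17b7, with 0 called without R1 replicate 4, R1 replicate 5, R2 replicate 2 or R2 replicate 4.

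**Figure D5:**
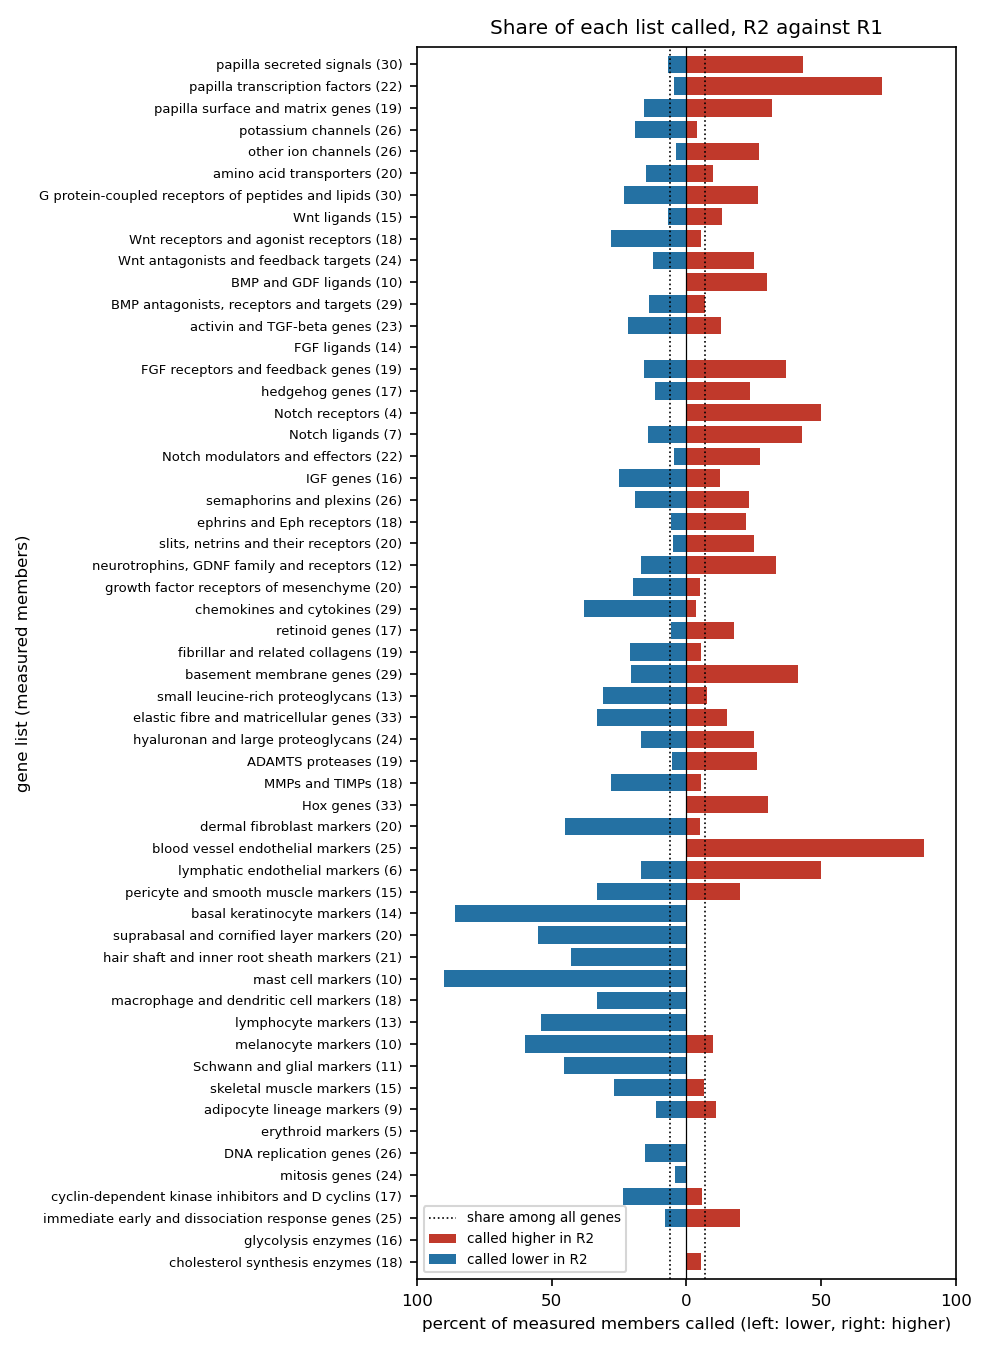
Share of the measured members of each of 56 gene lists (vertical axis) called higher in R2 (red, to the right) or lower (blue, to the left), as a percent on the horizontal axis; the papilla surface and matrix list is drawn with Prom1. Dotted lines mark the shares among all genes, 6.89% and 6.16%. The widest red bars are those of endothelial markers (22 of 25) and papilla transcription factors (16 of 22), and the widest blue bars those of mast cell (9 of 10) and basal keratinocyte markers (12 of 14).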

How the data were processed

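RNA of cells sorted into 3 gates from 3 mice was hybridised to 9 expression arrays, 1 per mouse and gate. Per the labels' protocols a column kit served to isolate the RNA, which was amplified by the WT-Ovation Pico method and labelled with biotin. The deposited log2 values were made by the authors with RMA, which corrects background, quantile-normalizes and summarizes probe sets, per the submitters' processing notes. The sources used here do not name the RMA software or its version. The values run from 1.65 to 14.8 and were used as deposited.

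Of 45101 probe sets 34958 had 1 gene symbol, 932 several and 9211 none, in GEO's platform annotation. Of those with 1 symbol 34754 were found in RefSeq (GRCm38.p6) by gene identifier, and 0 symbols needed updating. The probe set with the largest mean stood for each of the 9010 genes with several.

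Limma 3.58.1 (R 4.3.3) was fitted on all 9 arrays with 1 coefficient per gate, the default variance prior, no filter and Benjamini-Hochberg adjustment over 18193 genes. A gene was called at a two-sided adjusted p under 0.05, and errors are moderated standard errors. Precision is limited by having 3 arrays a gate. Tables and figures were made in Python 3.11.15 with matplotlib 3.10.9, numpy 2.4.6 and pandas 2.3.3. Tested on simulated data for this comparison (200 of 18193 genes changed), the share recovered was 10% for changes of 1.5-fold, 66% for 2-fold, 98% for 4-fold and 100% for 8-fold, and 14 of its 151 calls were unchanged genes. The simulation drew independent noise and gave far fewer calls than the 2375 of the data, so these shares need not hold for the real fit.

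Array numbers name the mouse, so they pair the gates. Deviations from the gate means correlated at 0.063, 0.083 and 0.177 between the R1 and R2 arrays of mice 2, 4 and 5. Over the 3 gates the mean correlation was 0.085 for 9 pairs of arrays of one mouse and -0.043 for 18 pairs of different mice.

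The comparison and the 56 gene lists were chosen with earlier results of these data known, so list counts are descriptions, to be read beside the share called among all genes. Named genes are the 12 called genes with the largest change in each direction and the same sign in all 3 mice (predicted and clone-type symbols skipped), Prom1 and Sox2, up to 4 members of a list with the lowest p, and further members whose role in a family is described. The alternatives tried were a block for the mouse, fixed or random, each array left out, the 6 arrays alone, other centring, normalization, probe set and variance choices, a filter on dim genes and a minimum change of 2-fold.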

Additional observations from a re-analysis of the deposited data

How the results depend on the processing

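Of 18193 genes 2375 were called, 1254 higher and 1121 lower. With the mouse number as a fixed block (the paired fit) the counts were 2431, 1263 and 1168. Among the 228 genes named in the text, the block ended 3 calls and added 2, all given with their values above, and changed no other call. With the mouse as a random effect 2581 genes were called, with the 6 arrays alone 2073, after centring 2308, after quantile normalization again 2391, with the mean of all probe sets 2602, with a trended and robust prior 2608 and among genes above the median gene 2156. A minimum change of 2-fold left 1083 genes, 497 higher and 586 lower, fewer by construction. Leaving out 1 array gave 1554 to 1990 genes, 804 to 1069 higher and 750 to 1001 lower, with fewer samples in the fit. None of these 228 genes reversed its sign under these alternatives. Of 112 list counts, 26 moved by over 1.5 times without R2 replicate 2 and 24 without R1 replicate 2, against 11 with the block and 3 after centring; many are counts of 1 or 2 genes. Signals near the background guide limit the folds of dim genes.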
